A study of Saccharomyces cerevisiae with 6 samples.

Results

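Iron-sulphur cluster assembly and mitochondrial iron supply were followed through 10 genes of *S. cerevisiae*: *ISU1*, *ISU2*, *NFS1*, *YFH1*, *SSQ1*, *JAC1*, *ISA1*, *ISA2*, *MRS4* and *ATM1*. They were chosen by name for their role, with earlier results of these data known. They were matched to the platform's table of probe sets and compared between the groups of arrays. All 10 were found, out of 5449 yeast genes on the array. Each has 1 probe set, and none of the 10 carries the platform's suffix for probes shared between transcripts. All 10 lay above background on all 6 arrays, as did 98.8% to 99.2% of yeast probe sets on each array. The arrays hold strain BY4742, a haploid MATalpha laboratory strain that lacks *LEU2*, *LYS2* and *URA3* and carries a partial deletion of *HIS3*, in 3 groups of 2 arrays. Every culture was grown for 24 h in YPD and moved to fresh YPD for another 24 h. The untreated control received nothing further, the nystatin group received 0.27 mg/L of nystatin, and the third group received 0.27 mg/L of nystatin with 100 mg/L of cadmium sulphide quantum dots (CdS QDs). Nystatin is a polyene that binds ergosterol and makes the membrane permeable, and it was added to help the particles enter the cells. No group received CdS QDs without nystatin, so the comparison of nystatin + CdS QDs with nystatin is the one that holds nystatin constant.

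Iron-sulphur clusters are cofactors of iron and sulphide that many enzymes of respiration, amino acid synthesis and DNA metabolism need. In yeast mitochondria the cysteine desulphurase Nfs1 supplies sulphur, frataxin (Yfh1) assists the reaction, and the cluster is built on the scaffold proteins Isu1 and Isu2. The chaperone Ssq1 and its J-protein partner Jac1 then release it, the A-type proteins Isa1 and Isa2 serve the later steps towards enzymes such as aconitase, Mrs4 carries iron in through the inner membrane, and the ABC transporter Atm1 exports a sulphur compound that the cytosolic assembly machinery depends on. When cluster synthesis fails, the regulators Aft1 and Aft2 stay active and switch on iron uptake, which ties this pathway to the iron state of the whole cell.

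The values are log2 RMA signals as the authors deposited them, where a difference of 1 is a 2-fold change. The lowest over all probe sets was 0.3, and the highest over yeast probe sets was 13.26. RMA gives the probe intensities of every whole array the same distribution, so a change in total RNA per cell would not show. The yeast probe sets alone need not share 1 distribution, and their medians ran from 7.72 to 7.73. Since RNA of whole cultures was measured, fewer cells with a transcript and less of it in each cell cannot be told apart. The 2 arrays of a group correlated at 0.998 to 0.999 across yeast probe sets, and according to the methods they came from aliquots of RNA extract, so the p-values below measure a spread that may be technical. Two-sided limma tests were fitted over all 5498 yeast probe sets, and a gene is said to have risen or fallen where its p, adjusted by the method of Benjamini and Hochberg, was under 0.05. The signal of 7 yeast control genes at the 3' end minus that at the 5' end, a measure of RNA integrity, was 1.41 and 1.47 on the control arrays, 1.45 and 1.45 on the nystatin arrays, and 1.58 and 1.58 on the CdS QDs arrays. It thus moved with the CdS QDs, and its part in the results was not tested. *LYS2* and *URA3* lay below background on every array. *LEU2* lay between 1.29 and 2.29, around the background of 1.42 to 1.48, and was above it on the control and CdS QDs arrays. *HIS3* had a signal of 7.84 to 8.63, and where its probes lie relative to the deleted part is not given in the sources used here. All 4 genes of alpha cells rose over the control with nystatin + CdS QDs, where 36.5% of all probe sets rose. They also rose with nystatin alone, where 10.4% did, and 3 of them rose from nystatin to nystatin + CdS QDs, where 36.7% did. The 6 genes of a cells, which this strain should not express, still had signals of 3.57 to 6.48, all above background. A signal above background thus does not by itself show expression. Of these 6 genes, 2 rose and 3 fell with nystatin + CdS QDs over the control, where 38.9% of all probe sets fell. The signals of *ATM1*, 6.23 to 6.46, lay within the range of these a-cell genes.

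With nystatin + CdS QDs, all 10 genes differed from the untreated control, 7 of them higher and 3 lower. *ISU2*, *MRS4* and *SSQ1* rose most, by 3.36-fold, 2.39-fold and 2.24-fold. *YFH1* and *ISA2* rose by 1.63-fold and 1.57-fold, and *JAC1* and *NFS1* by 1.26-fold and 1.18-fold. *ISA1* fell to 0.539 of its control level, while *ISU1* and *ATM1* fell by less, to 0.840 and 0.856. Over the whole array, 75.4% of probe sets passed in this comparison (36.5% rose and 38.9% fell), so a call by itself was common. At the limits set in the paper, which here ask for a log2 change of 1 or more in either direction and a p under 0.01 before adjustment, 3 of the 10 genes were higher (*ISU2*, *MRS4* and *SSQ1*) and none was lower, where 4.95% of all probe sets were higher and 5.15% lower. The 2 CdS QDs arrays did not overlap with the control arrays in any of the 10 genes, which also held for 42.7% of all probe sets in the higher and 44.9% in the lower direction. The median log2 fold change was 0.49 over the 10 genes and −0.01 over all probe sets.

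**Figure D1:**
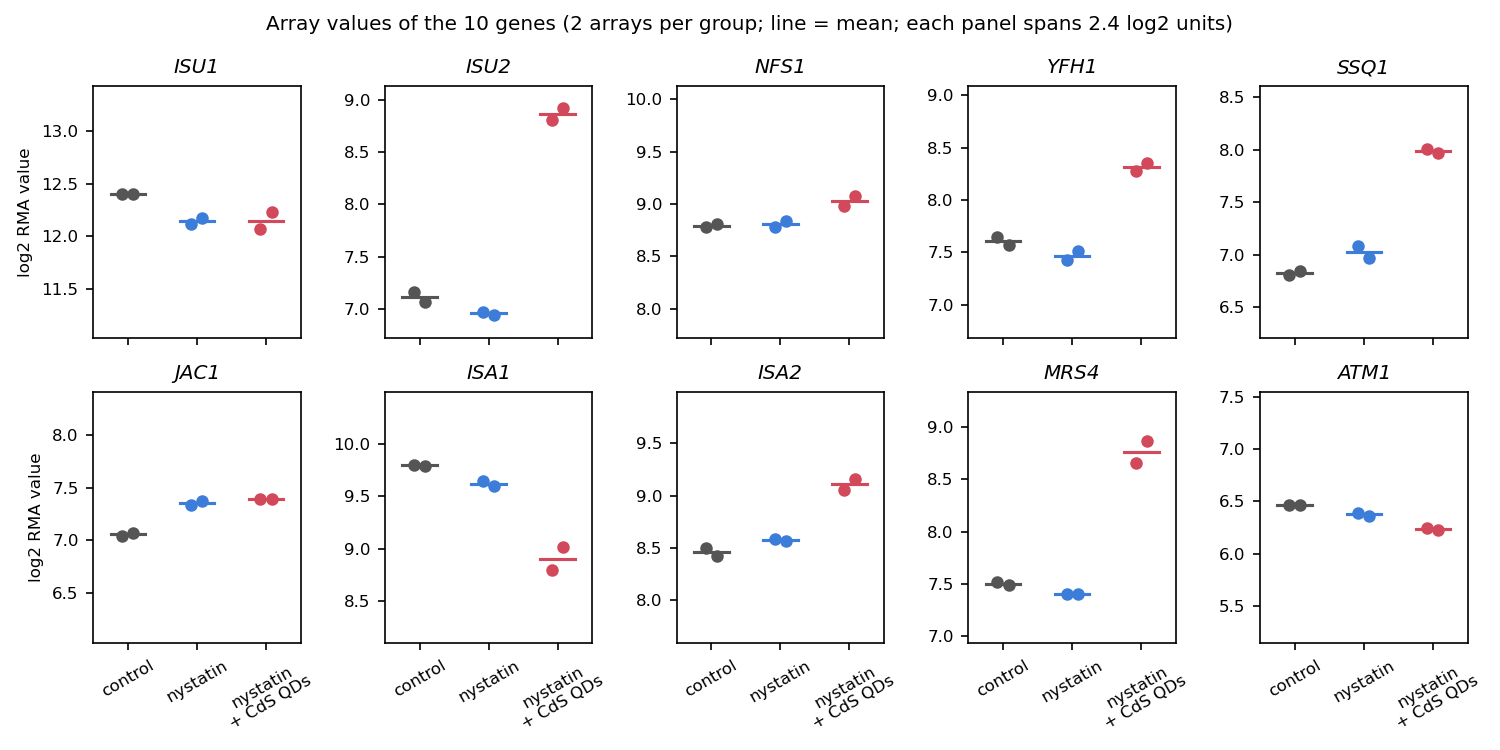
log2 RMA value (vertical axis, each panel spanning the same number of log2 units) of the 10 genes on each array, with points for the 2 arrays of the untreated control, nystatin and nystatin + CdS QDs, and lines at the group means. In *ISU2*, *MRS4*, *SSQ1*, *YFH1* and *ISA2* the CdS QDs arrays stand above the other 4, in *ISA1* below them, and in *JAC1* the nystatin and CdS QDs arrays lie together above the control.

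The scaffold genes went opposite ways against the untreated control, but from nystatin to nystatin + CdS QDs only *ISU2* passed. *ISU2* (YOR226C) had log2 values of 7.17 and 7.06 on the control arrays, 6.98 and 6.94 on the nystatin arrays, and 8.81 and 8.92 on the CdS QDs arrays. The CdS QDs arrays lay far above the rest, and the other 4 arrays stayed within a narrow band. Against the untreated control *ISU2* rose by 1.75 on the log2 scale (standard error 0.058, limma adjusted p = 6.71e-07), which placed it 59th from the highest of the 5498 probe sets. Against nystatin alone it rose by 1.90 (adjusted p = 5.14e-07) and was 45th. *ISU1* (YPL135W), the paralogue of *ISU2*, had 12.40 and 12.40 on the control arrays, 12.12 and 12.18 on the nystatin arrays, and 12.06 and 12.23 on the CdS QDs arrays. Its nystatin and CdS QDs arrays overlapped each other and lay below the control. *ISU1* fell by 0.25 with nystatin + CdS QDs (standard error 0.063, adjusted p = 0.00876) and fell by 0.25 with nystatin alone (adjusted p = 0.0331). From nystatin to nystatin + CdS QDs its log2 fold change was 0.00, with a 95% confidence interval of −0.15 to 0.15. The signal of *ISU1* was near the highest of any yeast probe set, 13.26, and whether this compressed its changes was not tested. The fall of *ISU1* with nystatin + CdS QDs no longer passed without moderation of the variance (adjusted p = 0.0601) or after quantile normalization over yeast probe sets alone (0.0849).

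The sulphur donor and frataxin rose by different amounts. *YFH1* (YDL120W), the yeast frataxin gene, had 7.65 and 7.57 on the control arrays, 7.43 and 7.51 on the nystatin arrays, and 8.27 and 8.35 on the CdS QDs arrays. The lowest CdS QDs array was above the highest of the other 4. Its log2 fold change against the untreated control was 0.70 (standard error 0.054, adjusted p = 2.60e-05), and against nystatin alone 0.85 (adjusted p = 1.17e-05). *NFS1* (YCL017C), for the essential cysteine desulphurase, had 8.78 and 8.80 on the control arrays, 8.78 and 8.84 on the nystatin arrays, and 8.98 and 9.07 on the CdS QDs arrays. The control and nystatin arrays overlapped, and the CdS QDs arrays lay slightly above them. *NFS1* rose by 0.24 over the control (standard error 0.052, adjusted p = 0.00478) and by 0.22 against nystatin (adjusted p = 0.00708), a call that ended without nystatin replicate 1 (adjusted p = 0.0514).

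In the chaperone pair that frees the cluster from the scaffold, *SSQ1* rose from nystatin to nystatin + CdS QDs and *JAC1* did not pass. *SSQ1* (YLR369W), a mitochondrial heat-shock protein gene, had 6.81 and 6.84 on the control arrays, 7.08 and 6.97 on the nystatin arrays, and 8.01 and 7.97 on the CdS QDs arrays. The 3 groups did not overlap and stood in that order. *SSQ1* rose by 1.17 with nystatin + CdS QDs (standard error 0.052, adjusted p = 2.07e-06) and by 0.96 from nystatin to nystatin + CdS QDs (adjusted p = 5.09e-06). *JAC1* (YGL018C), for the J-protein that works with Ssq1, had 7.04 and 7.07 on the control arrays, 7.34 and 7.37 on the nystatin arrays, and 7.39 and 7.39 on the CdS QDs arrays. Its level with nystatin alone was thus close to that with the particles. *JAC1* rose by 0.34 over the control (standard error 0.042, adjusted p = 2.84e-04), and from nystatin to nystatin + CdS QDs its log2 fold change was 0.04 (95% confidence interval −0.06 to 0.14, adjusted p = 0.44).

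The A-type genes moved in opposite directions in both comparisons that involve CdS QDs, although their products act together. *ISA1* (YLL027W) had 9.80 and 9.79 on the control arrays, 9.65 and 9.60 on the nystatin arrays, and 8.79 and 9.02 on the CdS QDs arrays. The CdS QDs arrays were the lowest and also the most spread of any pair among the 10 genes. *ISA1* fell by 0.89 over the control (standard error 0.074, adjusted p = 3.65e-05) and fell by 0.72 against nystatin (adjusted p = 1.13e-04). *ISA2* (YPR067W) had 8.50 and 8.42 on the control arrays, 8.59 and 8.57 on the nystatin arrays, and 9.06 and 9.16 on the CdS QDs arrays. Here the CdS QDs arrays were the highest. *ISA2* rose by 0.65 (standard error 0.053, adjusted p = 3.24e-05), and by 0.53 against nystatin (adjusted p = 9.37e-05).

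Of the inner membrane transporters, the iron carrier rose and the exporter was slightly lower. *MRS4* (YKR052C) had 7.51 and 7.49 on the control arrays, 7.40 and 7.40 on the nystatin arrays, and 8.66 and 8.86 on the CdS QDs arrays. Both CdS QDs arrays were well above the rest. *MRS4* rose by 1.26 over the control (standard error 0.070, adjusted p = 5.55e-06) and by 1.36 against nystatin (adjusted p = 4.16e-06), where it was 137th from the highest of all probe sets. *ATM1* (YMR301C) had 6.46 and 6.46 on the control arrays, 6.39 and 6.36 on the nystatin arrays, and 6.25 and 6.23 on the CdS QDs arrays. The groups did not overlap, but the whole range was narrow. *ATM1* fell by 0.22 over the control (standard error 0.041, adjusted p = 0.00197) and fell by 0.14 against nystatin (adjusted p = 0.0187), and the second call ended without nystatin replicate 1 (adjusted p = 0.0903) or nystatin replicate 2 (0.0545).

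With nystatin alone 3 of the 10 genes passed, and the log2 fold changes of the 10 ran from −0.25 to 0.30. Against the untreated control *JAC1* rose by 0.30 (standard error 0.042, adjusted p = 0.0058) and *SSQ1* by 0.20 (standard error 0.052, adjusted p = 0.0358), and *ISU1* fell, as given above. The other 7 did not pass, with log2 fold changes from −0.17 (*ISA1*) to 0.12 (*ISA2*). Over the whole array 21.8% of probe sets passed, with 10.4% that rose and 11.4% that fell. The nystatin arrays lay above the control arrays in 3 of the 10 genes and below them in 6, against 34.3% and 35.8% of all probe sets. None of the 10 genes reached the limits set in the paper, which 0.0364% of probe sets passed in the higher and 0.0728% in the lower direction. These 3 calls depended on which arrays were used. That of *ISU1* ended when either control array or either nystatin array was left out (adjusted p from 0.116 to 0.155), that of *SSQ1* likewise (0.0713 to 0.19), and that of *JAC1* without untreated control replicate 1 (0.0648) or nystatin replicate 2 (0.0553).

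From nystatin to nystatin + CdS QDs, 6 of the 10 genes rose, 2 fell and 2 did not pass, where 36.7% of all probe sets rose and 38.3% fell, 75.0% together. The arrays did not overlap in 7 genes that were higher and 2 that were lower, as in 42.7% and 44.6% of all probe sets. *ISU2* and *MRS4* were higher at the limits set in the paper and none of the 10 was lower, where 4.87% of all probe sets were higher and 4.66% lower, and *SSQ1*, at 0.96, was just under the fold limit. The median log2 fold change was 0.37 over the 10 genes and −0.01 over all probe sets. Each pair of the 3 comparisons shares 1 group of arrays, so their values are not independent of each other.

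**Figure D2:**
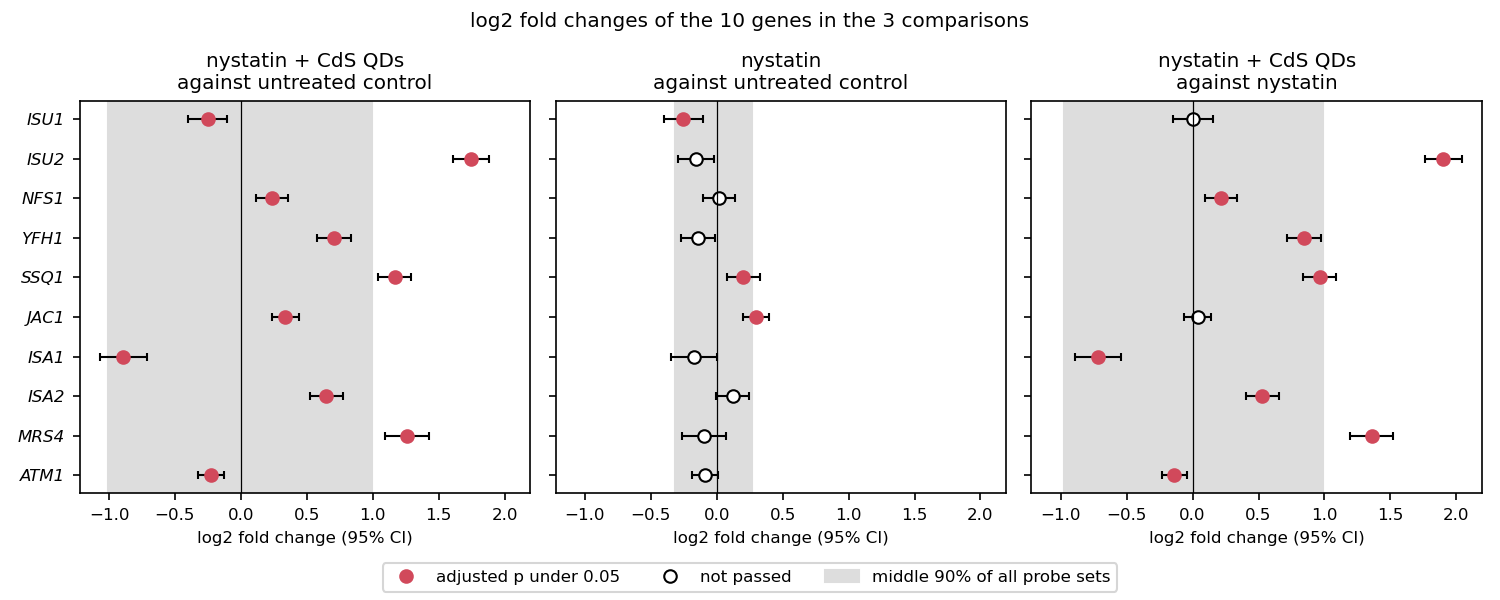
log2 fold changes of the 10 genes (horizontal axis) with 95% confidence intervals in the 3 comparisons, filled where the adjusted p was under 0.05, over a grey band that holds the middle 90% of all probe sets. *ISU2* and *MRS4* lie right of the band in both comparisons that involve CdS QDs and *SSQ1* in that with the untreated control, while with nystatin alone the values run from −0.25 to 0.30 and *JAC1* lies right of the narrower band of that comparison.

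The counts for the wider pathway are given beside the shares of all probe sets. With nystatin + CdS QDs against the untreated control 36.5% rose and 38.9% fell. From nystatin to nystatin + CdS QDs the shares were 36.7% and 38.3%. The lists were chosen with earlier results of these data known, so a count that differs from these shares is not a test. Of 10 partners of mitochondrial cluster assembly measured (of 11 listed), 8 rose over the control, 1 fell and 1 did not pass, with a median log2 fold change of 0.29. Over nystatin 9 rose and 1 fell, with a median of 0.32. *MGE1*, for the nucleotide exchange factor of the mitochondrial chaperones, rose by 0.87 over the control (standard error 0.063, adjusted p = 1.81e-05) and by 0.45 over nystatin. With nystatin alone *MGE1* rose by 0.42 (adjusted p = 0.00704). This call ended without untreated control replicate 2 (log2 fold change 0.36) or nystatin replicate 2 (0.38). It also ended without moderation of the variance (adjusted p = 0.0846) or with all probe sets of the array in the fit (adjusted p = 0.0752). Over the control, *ARH1*, for the adrenodoxin reductase-like enzyme that supplies electrons through the ferredoxin Yah1, rose by 0.71, and *ISD11*, for the small partner that Nfs1 needs, rose by 0.47. Over nystatin *ARH1* rose by 0.48 and *ISD11* by 0.70, and with nystatin alone their log2 fold changes were 0.24 and −0.23. With nystatin alone 2 of these partners rose and 1 fell, where 10.4% of all probe sets rose and 11.4% fell. All 3 further carriers tied to mitochondrial iron rose with nystatin + CdS QDs over the control, and 2 of them over nystatin. *MRS3*, the paralogue of *MRS4*, had 7.13 and 7.12 on the control arrays, 6.97 and 6.85 on the nystatin arrays, and 7.86 and 7.79 on the CdS QDs arrays, a rise of 0.70 (standard error 0.055, adjusted p = 2.67e-05). *GGC1*, for the mitochondrial GTP/GDP carrier, rose by 0.54, and *RIM2*, for a pyrimidine nucleotide carrier, by 0.26. From nystatin to nystatin + CdS QDs *MRS3* rose by 0.92 and *GGC1* by 0.41, while *RIM2* was at 0.15 and did not pass (adjusted p = 0.0513).

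The cytosolic machinery, which works downstream of the mitochondrial export, moved in both directions. Of 10 genes, 2 rose with nystatin + CdS QDs, 5 fell and 3 did not pass, and the median log2 fold change was −0.20, where 36.5% of all probe sets rose and 38.9% fell. From nystatin to nystatin + CdS QDs, 4 rose, 5 fell and 1 did not pass, with a median of −0.04. *DRE2*, for the electron donor of the earliest step, had 7.92 and 7.92 on the control arrays, 7.88 and 7.82 on the nystatin arrays, and 9.59 and 9.49 on the CdS QDs arrays. It rose by 1.62 over the control (standard error 0.051, adjusted p = 5.54e-07), close in size to *ISU2*, and by 1.69 against nystatin. *LTO1*, for an adaptor that hands clusters to the ribosome recycling factor Rli1, rose by 0.62 over the control and by 0.46 against nystatin. *NAR1*, for an iron-sulphur protein of the targeting step, had 8.88 and 8.89 on the control arrays. It had 8.53 and 8.51 on the nystatin arrays, and 7.67 and 7.89 on the CdS QDs arrays. *NAR1* fell by 1.10 over the control (standard error 0.073, adjusted p = 1.25e-05) and by 0.74 against nystatin. With nystatin alone its log2 fold change was −0.36.

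Of 7 genes measured for mitochondrial proteins that carry the clusters, 6 fell with nystatin + CdS QDs against the untreated control, none rose and 1 did not pass, where 38.9% of all probe sets fell. Their median log2 fold change was −0.96. From nystatin to nystatin + CdS QDs 5 fell, 1 rose and 1 did not pass, with a median of −0.64. *BIO2*, for biotin synthase, went from 6.99 and 6.96 on the control arrays to 6.80 and 6.77 on the nystatin arrays and 5.98 and 5.95 on the CdS QDs arrays. It fell by 1.01 over the control (standard error 0.043, adjusted p = 1.75e-06) and fell by 0.82 against nystatin. *ILV3*, for dihydroxyacid dehydratase of branched-chain amino acid synthesis, fell by 0.96 against the untreated control and by 0.98 against nystatin. *SDH2*, for the iron-sulphur subunit of succinate dehydrogenase, fell by 0.96 against the control and by 0.91 against nystatin. Among 15 genes for cytosolic and nuclear iron-sulphur proteins, 5 rose, 5 fell and 5 did not pass, with a median of −0.01, shares near the 36.5% and 38.9% of all probe sets. Over nystatin 6 rose, 7 fell and 2 did not pass, with a median of −0.14. *GLT1*, for glutamate synthase, fell by 1.38 over the control (standard error 0.054, adjusted p = 1.25e-06) and by 1.37 against nystatin. *ELP3*, for the radical enzyme of the Elongator complex, fell by 1.01 over the control and by 1.02 against nystatin. *LEU1*, for isopropylmalate isomerase of leucine synthesis, rose by 0.98 over the control and by 0.67 against nystatin. With nystatin alone the log2 fold change of *LEU1* was 0.32.

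The genes through which cluster status reaches the iron regulators differed among themselves. Of 6 measured, 3 rose with nystatin + CdS QDs, 1 fell and 2 did not pass, with a median log2 fold change of 0.14, where 36.5% of all probe sets rose and 38.9% fell. Over nystatin 5 rose and 1 fell, with a median of 0.22. *AFT1*, for the main activator of iron uptake, had 7.48 and 7.36 on the control arrays. It had 7.22 and 7.17 on the nystatin arrays, and 8.37 and 8.45 on the CdS QDs arrays. *AFT1* rose by 0.99 over the control (standard error 0.058, adjusted p = 6.97e-06) and by 1.215 against nystatin. *BOL2*, also called *FRA2*, whose product joins the inhibitory complex on Aft1, rose by 0.80 over the control and by 0.85 against nystatin. *GRX4*, for a monothiol glutaredoxin of the same complex, went the other way. It had 8.84 and 8.89 on the control arrays, 8.68 and 8.64 on the nystatin arrays, and 7.28 and 7.35 on the CdS QDs arrays. *GRX4* fell by 1.55 over the control (standard error 0.048, adjusted p = 5.02e-07) and by 1.35 against nystatin.

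**Figure D3:**
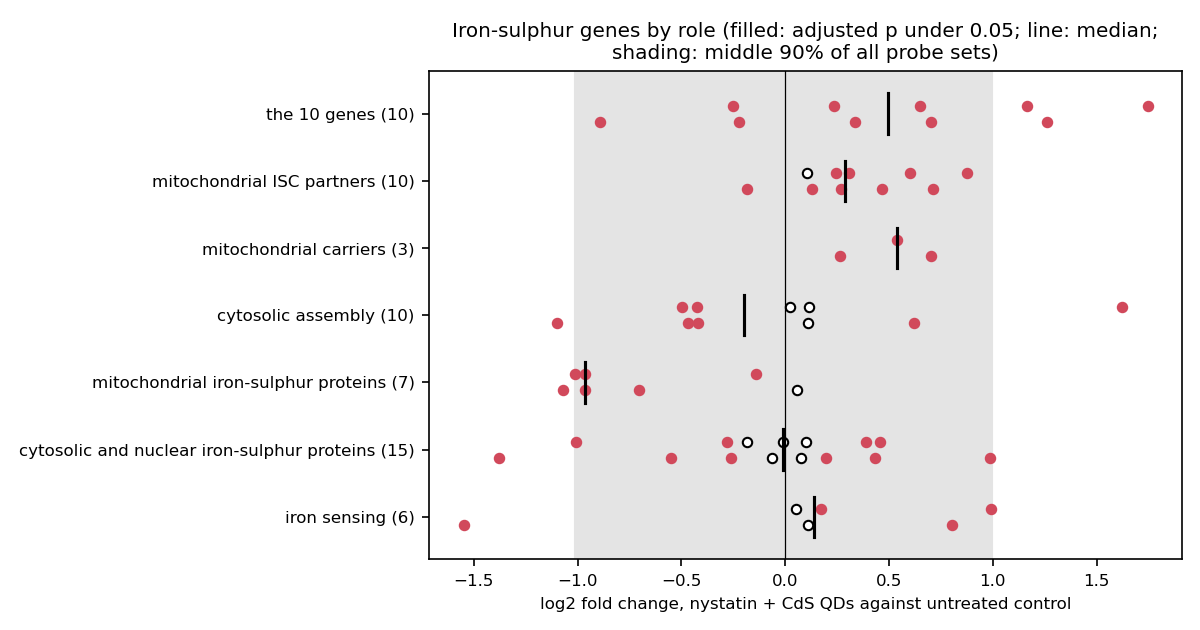
log2 fold change with nystatin + CdS QDs against the untreated control (horizontal axis) of the 10 genes and of 6 further lists of the pathway (rows, with the number of genes measured), filled where the adjusted p was under 0.05, with a black line at the median and a grey band over the middle 90% of all probe sets. The medians run from −0.96 for mitochondrial iron-sulphur proteins to 0.54 for the mitochondrial carriers, and *ISU2*, *DRE2* and *GRX4* lie farthest from 0.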

How the data were processed

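The deposited log2 values were made by the authors from GeneChip Yeast Genome 2.0 arrays with Affymetrix Expression Console and RMA, named in the paper and in the submitters' processing notes, and were used without further scaling. The scanned intensities were not used here. Probe sets were matched to R64 RefSeq genes by gene ID in the platform table. Of 10928, 5498 matched *S. cerevisiae*, and 1747 with another gene listed were taken as *S. pombe*. A further 3470 had no gene listed and 213 were controls. The 95th percentile of the 1747 on each array was taken as background. A mean per group was fitted over all 6 arrays with limma 3.58.1 (R 4.3.3), which left 3 residual and 3.8 prior degrees of freedom, and p-values were adjusted over all 5498 probe sets. The fit was run on simulated data with 200 changed probe sets. In these data 4147 passed with nystatin + CdS QDs against the untreated control, so the simulation does not give their error rate. The members and lists were chosen with earlier results of these data known. Named are the 10 genes, the 3 members of each further list with the smallest adjusted p with nystatin + CdS QDs against the untreated control, and *MRS3*. *BOL1* was not analysed here, and 1 further listed gene is not reported here. The dose of nystatin is that of the labels, and the paper gives a slightly lower one. Alternatives tried were other moderation, other sets of arrays or probe sets, other scaling, other thresholds, the replicate number as a block and each array left out. Python 3.11.15, pandas 2.3.3 and matplotlib 3.10.9 served for tables and plots.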

Additional observations from a re-analysis of the deposited data

How the results depend on the processing

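All 10 genes kept their direction and their call with nystatin + CdS QDs against the untreated control with any array left out, and 9 of 10 under the other settings, the exception being *ISU1* as given above. At the limits set in the paper, 3 of the 10 genes and 555 probe sets passed in this comparison (4147 probe sets at an adjusted p under 0.05), 0 and 6 with nystatin alone (1197), and 2 and 524 from nystatin to nystatin + CdS QDs (4123). With nystatin alone the calls depended on the setting. Of the 3 genes called, 1 was left without moderation (189 probe sets), 0 with all probe sets of the array in the fit (43) and 1 at an adjusted p under 0.01 (343), and with each array left out in turn 0 to 4 genes (168 to 1571 probe sets) were called. The fewest probe sets, 168, were called without untreated control replicate 1, and 231, 414 and 191 without untreated control replicate 2, nystatin replicate 1 and nystatin replicate 2. *ISA1* was the fourth gene, with an adjusted p = 0.0283 in the 4 arrays compared. The sign turned only for values close to 0: *ISU1* from nystatin to nystatin + CdS QDs was at −0.006 with each array centred on its median and from −0.0835 to 0.0864 with each array left out, and *NFS1* with nystatin alone was at −0.0137 to 0.0512 with each array left out. *ATM1* from nystatin to nystatin + CdS QDs did not pass with all probe sets in the fit (adjusted p = 0.0527). Replicate numbers did not pair the arrays (correlations of deviations −0.051 to 0.025). With the replicate number as a block the call of *SSQ1* with nystatin alone ended (adjusted p = 0.0542, 2 genes and 959 probe sets called), that of *RIM2* from nystatin to nystatin + CdS QDs began (0.0475), and it changed no other call reported here for a named gene. None of the 10 genes has another probe set of its own, so that alternative gave no value for them. With 2 arrays in a group, the precision of each value is limited.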
